A study of Mus musculus with 87 samples.

Results

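The 6 genes described here encode the core of Polycomb repressive complex 2 (PRC2): Suz12, Ezh2, Ezh1, Eed, Rbbp4 and Rbbp7. They were chosen by name, and all 6 of them were found among the 26171 gene symbols of each of the 13 RNA-seq comparison tables. The cells were mouse embryonic stem cells (ESC) of the line 129-B13, grown in serum with LIF, and neuronal precursors (NP) made from such cells, treated with retinoic acid on day 4 and harvested on day 8. Wild type cells (WT; 3 ESC and 4 NP libraries) were the reference. In CSex4 cells exon 4 of Suz12 is always included (2 and 2 libraries), and in Deltaex4 cells exon 4 is deleted (2 and 2). KO cells lack Suz12 altogether (3 and 2). KO-L and KO-S cells are the knock-out carrying a rescue with the long or the short SUZ12 isoform, which differ by the exon 4 sequence (2 and 2 libraries each). In KO-L3D and KO-S3D cells (ESC, 2 libraries each) the rescue sits in the Rosa26 locus and carries the 3D mutation at position 196, beyond exon 4. The knock-out is thus shared by KO, KO-L, KO-S, KO-L3D and KO-S3D cells. The labels give no clone or culture for a replicate, so p-values measure the spread between these libraries, which may be technical.

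PRC2 methylates lysine 27 of histone H3 and so keeps developmental genes silent in stem cells. SUZ12 is its scaffold and the surface to which accessory factors dock. EZH2 and its paralog EZH1 are the alternative methyltransferases; EZH2 is the form of dividing cells. EED binds the methylated lysine and stimulates the enzyme, and RBBP4 and its close paralog RBBP7 bind histones and also serve in the NuRD, Sin3 and CAF-1 complexes.

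The genes lie on 5 chromosomes of the mouse assembly GRCm38.p6: Suz12 at chr11:79993106-80034123 on the plus strand, Ezh1 at chr11:101191115-101226463 on the minus strand, Ezh2 at chr6:47530274-47595270 on the minus strand, Eed at chr7:89954654-89980976 on the minus strand, Rbbp4 at chr4:129307100-129335370 on the minus strand and Rbbp7 at chrX:162760372-162779090 on the plus strand. The 250 bases before the start site of the 4 members that were called most often follow 5' to 3' on the gene's own strand, from RefSeq's GRCm38.p6 promoters, because changes in their reads are the subject of what follows. Capitals mark E2F-type letters, taken as TTCCCGC or else TTCGCGC or else TTGCCGC or else TTGGCGC on either strand, which were chosen after the sequences had been seen.
Suz12 promoter: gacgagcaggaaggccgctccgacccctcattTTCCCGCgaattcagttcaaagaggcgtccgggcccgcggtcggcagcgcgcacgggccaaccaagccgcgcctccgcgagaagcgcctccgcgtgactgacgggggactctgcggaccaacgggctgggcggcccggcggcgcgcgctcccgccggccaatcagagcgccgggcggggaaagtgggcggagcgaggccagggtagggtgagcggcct
Rbbp4 promoter: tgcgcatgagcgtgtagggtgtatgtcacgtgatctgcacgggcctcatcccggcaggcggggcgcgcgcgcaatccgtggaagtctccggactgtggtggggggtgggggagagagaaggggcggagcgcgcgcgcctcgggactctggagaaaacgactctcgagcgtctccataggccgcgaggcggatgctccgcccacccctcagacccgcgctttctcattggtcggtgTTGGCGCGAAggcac
Ezh2 promoter: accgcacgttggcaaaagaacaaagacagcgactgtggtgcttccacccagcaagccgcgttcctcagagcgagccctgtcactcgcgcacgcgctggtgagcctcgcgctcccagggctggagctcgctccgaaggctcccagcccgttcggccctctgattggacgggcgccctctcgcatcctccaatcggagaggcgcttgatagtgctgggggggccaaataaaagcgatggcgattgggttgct
Rbbp7 promoter: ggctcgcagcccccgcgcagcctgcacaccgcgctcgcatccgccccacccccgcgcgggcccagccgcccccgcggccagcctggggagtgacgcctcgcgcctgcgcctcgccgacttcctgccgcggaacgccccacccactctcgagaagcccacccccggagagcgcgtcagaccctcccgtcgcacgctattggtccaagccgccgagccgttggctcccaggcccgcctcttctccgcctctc
These windows are chr11:79992856-79993105 (plus strand) for Suz12, chr4:129335371-129335620 (minus) for Rbbp4, chr6:47595031-47595280 (minus) for Ezh2 and chrX:162760122-162760371 (plus) for Rbbp7. Suz12 held 1 such match, 218 bases before its start site, and Rbbp4 held 2 that overlap, TTGGCGC at 15 bases and TTCGCGC on the other strand, read here as GCGCGAA, at 12 bases. No match stood in these windows of Ezh2, Ezh1, Eed or Rbbp7. A match was found in 7.97% of the 27025 promoters of the same length. The windows are rich in G and C, from 54.4% in Eed to 76.4% in Rbbp7, and CCAAT occurred on either strand in those of Suz12, Ezh2, Rbbp4 and Rbbp7, against 34.5% of all promoters.

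PRC2 and its mark were also mapped by ChIP-seq, and 2 deposited lists of regions, of Suz12 and of H3K27me3, were compared with the 6 genes by position. Their headers name WT and DiffBind, a tool for differential binding, but not the contrast. Of 20992 coding genes, 12.2% lay within 2500 bp of a Suz12 region, and none of the 6 did. With only 6 genes, this count does not set the members apart from other genes. The nearest Suz12 region was 13.9 kb from Ezh1 and 600.6 kb from Rbbp7. An H3K27me3 region stood within 2500 bp of 1 member, Rbbp7, 2402 bp before its start site; 23.0% of coding genes had such a region. The nearest H3K27me3 region was 18.0 kb away from Suz12 and from Rbbp4, 57.6 kb from Ezh2, 12.5 kb from Ezh1 and 318.6 kb from Eed.

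The deposited mean of each gene holds enough digits to recover the reads of the single libraries, which are given below as normalised reads: reads divided by the library's size factor, on a common scale for all ESC libraries and on a separate one for all NP libraries. Levels are therefore compared within ESC and within NP, and not between genes, since the reads are not divided by transcript length. Libraries are known by group and carry letters that have no link to the replicate numbers of the labels. WT library c of ESC carries no weight in the deposited fold changes of 6 of the 7 ESC tables (all but KO), which thus rest on WT libraries a and b. Tables held between 26085100 and 31499800 normalised reads per library, and a member had between 477 and 31887 reads in a library. Stem cell markers (Pou5f1, Nanog, Sox2, Zfp42, Esrrb) summed to between 36271 and 124558 normalised reads in the ESC libraries. The groups were not equal in their markers: the neural precursor markers Hes5, Neurog2 and Fabp7 were under 10 reads in every NP KO library, and the 6 neural precursor markers summed to 2518 to 2804 there against 8110 to 21087 in NP WT. Neuron markers (Dcx, Tubb3, Map2) summed to 911 to 1041 in NP KO and to 5635 to 29007 in NP WT, whereas endoderm markers (Gata6, Gata4, Sox17, Foxa2) summed to 8560 to 16019 in NP KO and to 1854 to 6902 in NP WT. ESC CSex4 stood apart as well: its stem cell markers summed to 36271 to 54561 against 72784 to 91635 in ESC WT, with 2 of 5 called lower. Of all tested genes, 2.41% were called there in either direction. The neural precursor markers of ESC CSex4 summed to 4611 to 11136 and those of ESC KO-L to 2797 to 4928, against 583 to 2405 in WT. Fibroblast markers (Col1a1, Col1a2, Thy1) summed to 967 to 1615 in ESC CSex4 and 2074 to 2130 in KO-L, against 271 to 435. The stem cell markers of ESC KO-L, at 49622 to 76521, overlapped WT. In ESC KO-S, the endoderm markers Gata4 and Foxa2 summed to 1868 to 2441, against 57 to 1071 in WT. In NP CSex4 the stem cell markers summed to 34771 to 35469, against 5119 to 11543 in NP WT. In bulk RNA, fewer cells of a type and less RNA per cell cannot be told apart, and the part of these markers in the results below was not tested.

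Of the 78 values (6 genes in 13 comparisons), the authors' deposited tables called 24 at an adjusted p under 0.05, 9 higher and 15 lower. Suz12 was called in 8 comparisons, Ezh2 and Rbbp7 in 5 each, Rbbp4 in 4, Eed in 2 and Ezh1 in none of the 13. In ESC, 4 members fell in KO (7.27% of all tested genes fell), 5 in KO-L3D (10.1%), 1 in KO-L (0.771%) and 1 more, with a background of 3.63%, in KO-S; none was called in CSex4 (2.41% of genes called in either direction), Deltaex4 (0.0%) or KO-S3D (3.23%). In NP KO against WT, 2 members fell (9.85% of genes) and 1 rose (11.6%). With the other 2 WT libraries, in the table of NP WT against KO, 2 were higher in WT (15.6%) and 1 lower (17.3%). Against NP KO, 3 were higher in KO-L (10.9%) and 1 lower (13.8%), and 3 were higher in KO-S (16.4%). None was called in NP CSex4 (5.53% in either direction) or NP Deltaex4 (0.0809%). At an unadjusted p under 0.05, 2 members in ESC KO-S3D, 1 in ESC Deltaex4, 1 in NP CSex4 and none in ESC CSex4 or NP Deltaex4 passed the authors' DESeq2 test. Of all genes with a p-value, 2059 of 20609, 135 of 20263, 2421 of 21321, 1607 of 20453 and 398 of 20917 passed there, in that order. All 24 called values had groups whose libraries did not overlap, and so had 24 of the 54 values that were not called. The share over all genes was not counted, so this separation adds no support to a value. With 2 against 2 libraries, full separation gives a two-sided permutation p of 0.333 at best. The tables share libraries: all ESC tables use the same WT, and the 4 NP tables with KO use the same 2 KO libraries.

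**Figure D1:**
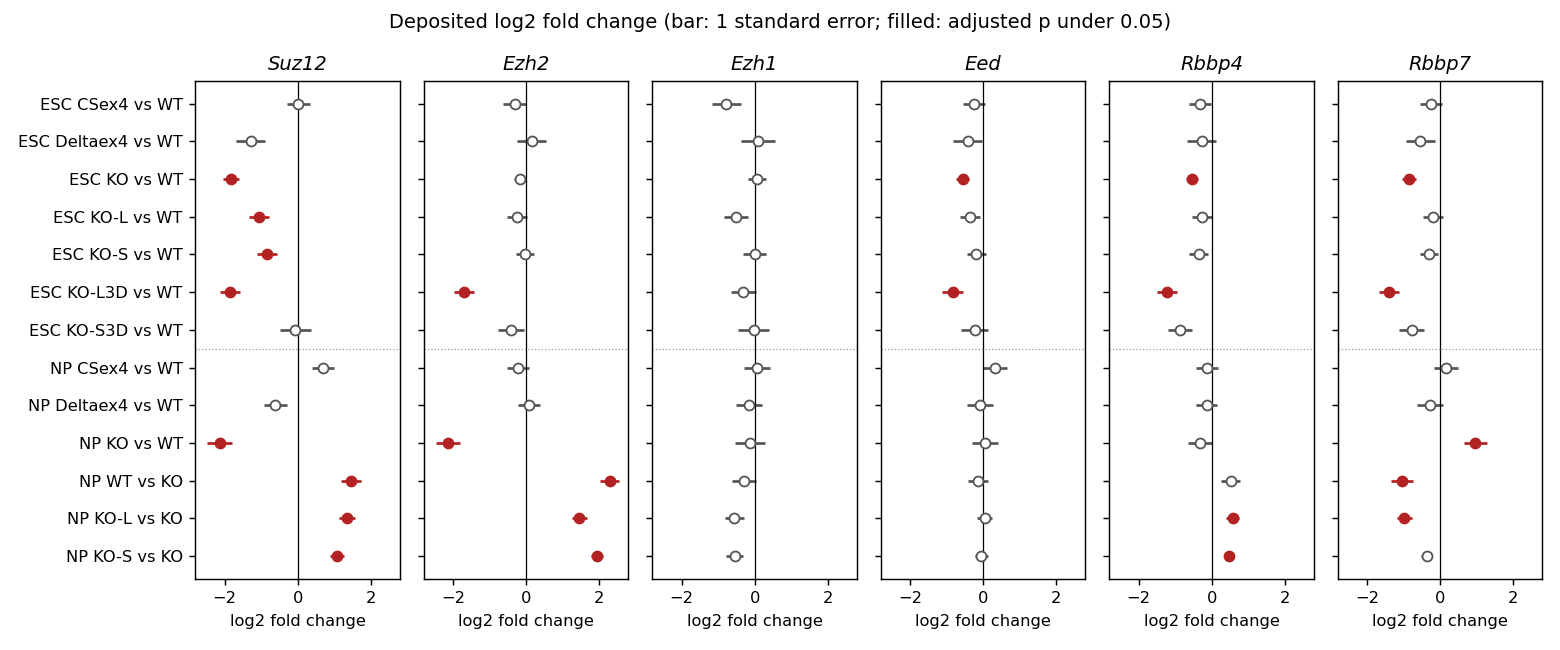
Log2 fold change of each PRC2 core gene (x axis, bar 1 standard error) in the 13 deposited comparisons (y axis, ESC above the dotted line and NP below); filled red points have an adjusted p under 0.05. Suz12 and Ezh2 give the largest values, Ezh1 has no filled point, and Rbbp7 is the gene whose filled points lie below 0 in ESC KO and above 0 in NP KO.

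Suz12 was examined first because it is the targeted gene. WT ESC libraries a, b and c had 8588, 5733 and 4410 normalised Suz12 reads. The 3 ESC KO libraries had 1218, 1626 and 2510. The KO libraries were all below the WT libraries, and their median was 28.4% of the WT median, so the label held while reads from the locus remained. The authors' deposited table gave a log2 fold change of -1.82 ± 0.22 (SE, 3 against 3 libraries, adjusted p 8.21e-15).

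The ESC rescue lines lay between KO and WT. KO-L libraries had 3182 and 3594 normalised Suz12 reads and KO-S libraries 3924 and 3951, all below the lowest WT library and above the highest KO library. Reads of the rescue and of the knocked-out locus cannot be told apart in a table by gene. Against WT, the authors' deposited tables gave -1.05 ± 0.28 for KO-L (adjusted p 0.0143) and -0.83 ± 0.27 for KO-S (adjusted p 0.0345). With every WT library weighted alike, library c included, these 2 values were -0.83 and -0.61. With WT library a then left out, so that b and c remained, they were -0.57 and -0.35. The difference of KO-S from KO was 0.98 ± 0.35 on the log2 scale (95% interval 0.30 to 1.67, adjusted p 0.0965), that of KO-L from KO 0.76 ± 0.35 (0.07 to 1.46, adjusted p 0.528), and that of KO-L from KO-S -0.22 ± 0.39 (-0.99 to 0.55), none of which passed the test.

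Of the mutant rescues, KO-L3D had Suz12 near the KO level and KO-S3D near that of WT, though their difference did not pass the test. KO-L3D libraries had 1548 and 2464 normalised reads, within the range of the KO, whereas KO-S3D libraries had 4697 and 9617, overlapping WT, with the second above the highest WT library. In the authors' deposited tables the log2 fold change against WT was -1.85 ± 0.28 for KO-L3D (adjusted p 3.84e-09) and -0.06 ± 0.42 for KO-S3D (adjusted p 0.974). Their difference was -1.78 ± 0.51 (95% interval -2.77 to -0.79), with an adjusted p of 0.345 over 14798 genes, of which 0.0541% passed. The KO-S3D libraries differed 2.05-fold from each other in Suz12. They also differed in trophoblast markers, which summed to 198 in one and 6942 in the other; the part of this in the Suz12 values was not tested.

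CSex4 and Deltaex4 alter the same gene in place. CSex4 ESC libraries had 7002 and 7227 normalised Suz12 reads, inside the WT range, and the authors' deposited table gave 0.02 ± 0.31. Deltaex4 ESC libraries had 2154 and 3864, both below the lowest WT library. The authors' deposited table gave -1.28 ± 0.40 (unadjusted p 0.0013, adjusted p 1.00), in a table that called none of 20263 genes (135 at an unadjusted p under 0.05) and whose test statistics were narrower than a normal distribution (robust SD 0.56). With every WT library weighted alike, library c included, the value was -1.06. Weighted so, it was -0.64 without Deltaex4 library b and -0.80 without WT library a.

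In NP the order of median Suz12 levels, with the 4 WT libraries pooled, was KO, KO-S, KO-L, Deltaex4, WT and CSex4. The 4 WT libraries had 5736, 5029, 3111 and 3571 normalised reads, of which the first pair enters the comparisons against WT and the other pair the table of WT against KO. KO libraries had 1196 and 1247, below every other NP library, and the authors' deposited table gave -2.14 ± 0.33 (adjusted p 5.63e-09). KO-S had 2277 and 2956 and KO-L 2951 and 3293. CSex4 had 8432 and 9052, above all 4 WT libraries; the authors' deposited table gave 0.70 ± 0.30 against its WT pair (unadjusted p 0.0203, adjusted p 0.193), which did not pass. Deltaex4 had 3096 and 4011, at -0.61 ± 0.33 in the authors' deposited table (unadjusted p 0.0616). The difference between NP CSex4 and Deltaex4 was 1.31 ± 0.44 (95% interval 0.44 to 2.18, adjusted p 0.108), and that between the same groups in ESC 1.30 ± 0.51 (0.31 to 2.29, adjusted p 0.581). Neighbouring groups KO-S and KO-L, and KO-L, Deltaex4 and the 4 pooled WT libraries, overlapped. Both Deltaex4 libraries were below the WT pair of their own comparison (5736 and 5029). They overlapped only the other WT pair (3111 and 3571), which was itself below the first pair.

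**Figure D2:**
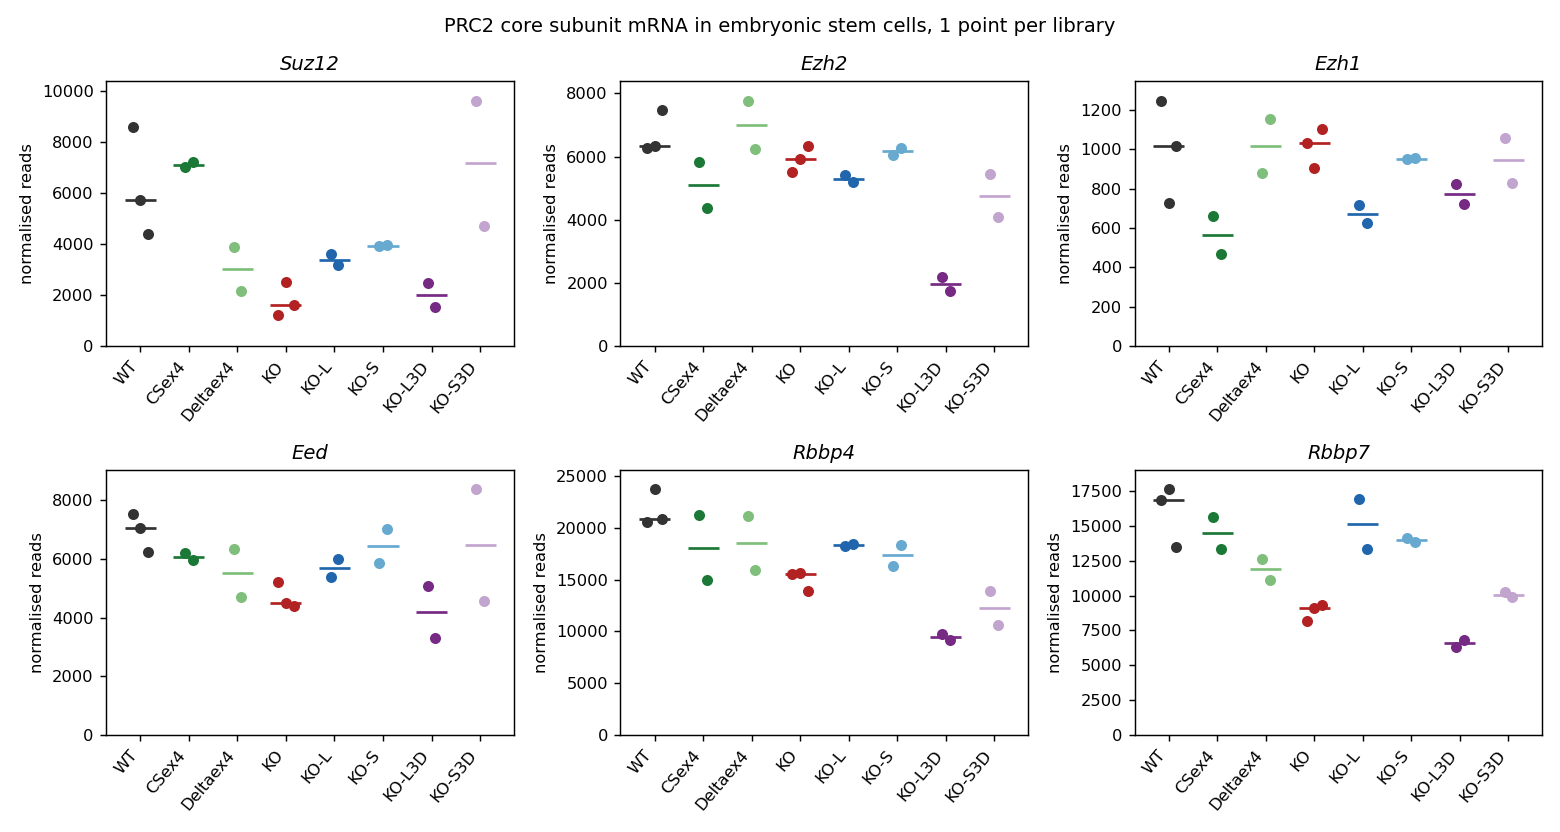
Normalised reads (y axis, from 0) of the 6 genes in the 18 ESC libraries by group (x axis); each point is a library and each line the group median. Suz12 is lowest in KO and KO-L3D, and the 2 KO-L3D libraries lie below all others for Ezh2, Rbbp4 and Rbbp7.

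Ezh2, the methyltransferase of dividing cells, fell in NP that lack Suz12 and not in ESC that lack it. The 3 ESC KO libraries had 5515, 5913 and 6342 normalised Ezh2 reads and the 3 WT libraries 6260, 6332 and 7480, so the groups overlapped. The authors' deposited table gave -0.17 ± 0.16 in ESC KO (95% interval -0.50 to 0.15, adjusted p 0.531). In NP, the 2 KO libraries had 1401 and 1491 against 5929 to 7202 in the 4 WT libraries, and no NP library of another group was below 3918. The KO median was 21.0% of the WT median. The authors' deposited tables gave -2.15 ± 0.33 for NP KO against WT (adjusted p 2.51e-09) and, with the other WT pair, 2.28 ± 0.26 for WT against KO (adjusted p 4.24e-17). The change in ESC KO exceeded that in NP KO by 1.98 ± 0.37 on the log2 scale (95% interval 1.26 to 2.70, adjusted p 3.71e-06 over 14631 genes, of which 14.3% differed).

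Ezh2 was higher in both isoform rescues than in KO in NP. KO-L libraries had 3918 and 4039 normalised reads and KO-S libraries 5432 and 5581, all below the lowest WT library. In the authors' deposited tables the log2 fold change against KO was 1.46 ± 0.20 for KO-L (adjusted p 6.64e-12) and 1.93 ± 0.16 for KO-S (adjusted p 1.19e-29). KO-L minus KO-S was -0.47 ± 0.26 (95% interval -0.98 to 0.04, adjusted p 0.302), and KO-L minus WT was -0.82 ± 0.33 (-1.46 to -0.18, adjusted p 0.0726); neither passed. The rescues also differed in markers. Neural precursor markers summed to 5675 to 7457 in KO-L, 11941 to 11967 in KO-S and 2518 to 2804 in KO. Stem cell markers summed to 16853 to 24887 in KO-L, 5037 to 6049 in KO-S and 2070 to 8020 in KO, and fibroblast markers (Col1a1, Col1a2, Thy1) to 6486 to 6759, 1886 to 1942 and 535 to 1082. The part of these markers in the Ezh2, Rbbp4 and Rbbp7 values of the rescues was not tested. The exon 4 groups lay near WT in Ezh2 in NP: 5417 and 5576 in CSex4, 6166 and 7548 in Deltaex4.

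In ESC, 1 group stood apart for Ezh2. The 2 KO-L3D libraries had 1730 and 2182 normalised reads, under the 4088 of the next lowest ESC library, which was of KO-S3D. The authors' deposited table gave -1.70 ± 0.28 for KO-L3D against WT (adjusted p 1.80e-07). With the statistic divided by its robust SD over all genes (1.84), this value did not pass (adjusted p 0.09). The log2 fold change was lower than in KO-L (KO-L3D minus KO-L -1.45 ± 0.39, 95% interval -2.22 to -0.68, adjusted p 0.00972). It was also lower than in the knock-out without rescue (KO-L3D minus KO -1.52 ± 0.33, -2.17 to -0.88, adjusted p 0.00156, a pair added after the planned ones). Against KO-S3D the difference was -1.28 ± 0.45 (-2.16 to -0.40) with an adjusted p of 1.00. Of all genes, 4.88%, 1.13% and 0.0541% passed in these 3 differences. The other ESC groups had between 4088 and 7767 Ezh2 reads, and Ezh2 was called in none of them.

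Ezh1, the paralog that can replace EZH2, passed in none of the 13 tables. In ESC it had between 470 (CSex4) and 1246 (WT) normalised reads. The 3 WT libraries alone ranged from 725 to 1246, a wider relative spread than for Ezh2. The lowest value was in ESC CSex4, with 470 and 659 reads, both under WT, in the ESC group whose stem cell markers were lowest (36271 to 54561); the authors' deposited table gave -0.77 ± 0.40 (unadjusted p 0.0545, adjusted p 0.454). In NP KO, where Ezh2 was low, Ezh1 had 752 and 1165 reads against 706 to 1235 in WT, and the authors' deposited table gave -0.13 ± 0.41 (95% interval -0.94 to 0.67). In NP the group medians of Ezh1 ran from 75.7% of the WT median in KO-L to 127% in CSex4, and KO-L alone did not overlap the 4 WT libraries. The rescues had 605 and 673 (KO-L) and 576 and 711 (KO-S) reads. The authors' deposited tables gave -0.56 ± 0.26 (adjusted p 0.113) and -0.55 ± 0.23 (adjusted p 0.0522) against KO. Without KO library b these were -0.25 and -0.24, and without KO library a both were -0.86.

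Within a library, the ratio of Ezh2 to Ezh1 reads needs no size factor, although it is not a ratio of molecules because lengths are not divided out. It lay between 4.80 and 10.2 in the 4 NP WT libraries and was 1.28 and 1.86 in NP KO. In the rescues it was 6.0 and 6.48 (KO-L) and 7.85 and 9.43 (KO-S). In ESC it was 2.40 and 2.65 in KO-L3D against 5.02 to 8.73 in WT and 5.35 to 6.54 in KO. NP KO and ESC KO-L3D, the groups with the lowest Ezh2, thus had the lowest ratios of their cell type. Taken against Eed instead, Ezh2 stood at 0.69 and 0.70 in NP KO against 2.49 to 4.10 in NP WT, and at 0.43 and 0.53 in KO-L3D against 0.83 to 1.20 in ESC WT. The ratio of Suz12 to Eed reads was 0.56 and 0.62 in NP KO against 1.77 to 3.39 in NP WT, and 0.23 to 0.56 in ESC KO against 0.71 to 1.14 in ESC WT.

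Eed, the reader subunit, fell in 2 ESC groups and in no NP group. WT ESC libraries had 7531, 7048 and 6220 normalised Eed reads and KO libraries 5213, 4482 and 4388, without overlap. The authors' deposited table gave -0.56 ± 0.17 (adjusted p 0.0109). KO-L3D libraries had 5088 and 3286, and the authors' deposited table gave -0.83 ± 0.29 (adjusted p 0.0279). With every WT library weighted alike, library c included, the value was -0.76, and without the lower KO-L3D library it was -0.44. With the statistic divided by its robust SD over all genes, Eed passed neither in KO (adjusted p 0.651) nor in KO-L3D (adjusted p 0.810). Relative to the median of genes with a mean of at least 100, Eed in KO-L3D did not pass (adjusted p 0.0885). The other ESC groups had median Eed levels from 78.3% of the WT median in Deltaex4 to 91.9% in KO-S3D, and none was called. In NP the range over all 14 libraries was 1691 to 2531. There the authors' deposited tables gave 0.05 ± 0.35 in KO against WT (95% interval -0.64 to 0.74), and against KO they gave 0.04 ± 0.21 for KO-L and -0.05 ± 0.18 for KO-S. The 95% intervals of the rescue values were -0.37 to 0.45 and -0.40 to 0.30.

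Rbbp4 and Rbbp7, the histone-binding pair, both fell in ESC KO and KO-L3D, while in NP KO Rbbp7 rose and Rbbp4 was not called. They are close paralogs, and how the counting treated reads that match both is not given in the sources used here. WT ESC libraries had 20634, 23748 and 20841 normalised Rbbp4 reads and KO libraries 15521, 15619 and 13943; the authors' deposited table gave -0.53 ± 0.17 (adjusted p 0.0110). For Rbbp7 the WT libraries had 16909, 17647 and 13500 and the KO libraries 8199, 9144 and 9333, at -0.84 ± 0.19 in the authors' deposited table (adjusted p 0.00024). In KO-L3D, Rbbp4 had 9125 and 9775 reads and Rbbp7 6286 and 6853, the lowest of the ESC libraries for both. The authors' deposited table gave -1.23 ± 0.27 (adjusted p 0.000192) for Rbbp4 and -1.40 ± 0.27 (adjusted p 1.02e-05) for Rbbp7. With statistics divided by their robust SD, neither gene passed in KO-L3D (adjusted p 0.383 and 0.217) or in ESC KO (0.652 and 0.317). For Rbbp7 the difference of KO-L3D from KO-L was -1.20 ± 0.38 (95% interval -1.95 to -0.45, adjusted p 0.0403), and for Rbbp4 it was -0.96 ± 0.38 (-1.71 to -0.22, adjusted p 0.127). The exon 4 and isoform groups had medians from 83.3% (KO-S) to 88.8% (Deltaex4) of WT for Rbbp4 and from 70.4% (Deltaex4) to 89.6% (KO-L) for Rbbp7, and neither gene was called in them. KO-S3D libraries, with 10648 and 13928 Rbbp4 and 9887 and 10239 Rbbp7 reads, were below every WT library. Neither gene passed: the authors' deposited table gave Rbbp4 at -0.86 ± 0.34 (adjusted p 0.153) and Rbbp7 at -0.78 ± 0.33 (adjusted p 0.222).

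In NP KO Rbbp7 was above its WT level. It had 22581 and 36153 normalised reads in KO and 10228, 20989, 12002 and 15815 in WT; KO was the higher, without overlap. The authors' deposited tables gave 0.96 ± 0.32 for KO against WT (adjusted p 0.0169) and -1.05 ± 0.30 for WT against KO with the other WT pair (adjusted p 0.00227). The first value was 0.63 without KO library a, 0.45 without WT library a and 1.48 without WT library b. With each statistic divided by its robust SD over all genes, neither passed (adjusted p 0.630 and 0.692). Rbbp4 had 11346 and 13987 reads in KO, below the 15732 to 18622 of WT, and was not called: the authors' deposited tables gave -0.32 ± 0.32 for KO against WT (adjusted p 0.549) and, in the reverse sense with the other WT pair, 0.52 ± 0.26 for WT against KO (adjusted p 0.107). Rbbp4 was higher in both rescues than in KO: the authors' deposited tables gave 0.58 ± 0.18 in KO-L (adjusted p 0.00978) and 0.47 ± 0.15 in KO-S (adjusted p 0.00516). With the statistic divided by its robust SD, neither Rbbp4 value passed (adjusted p 0.547 and 0.786). Relative to the median of genes with a mean of at least 4000, KO-L was 0.43 and did not pass (adjusted p 0.072), while KO-S did. Of tested genes with a mean of 4000 to 16000, 17.3% rose in KO-L and 26.9% in KO-S. Rbbp7 was lower than KO in KO-L, with 14009 and 14916 reads, at -0.98 ± 0.20 in the authors' deposited table (adjusted p 1.33e-05; -0.63 without KO library a). In KO-S, with 19816 and 24692 reads, it overlapped KO, and the authors' deposited table gave -0.37 ± 0.16 (adjusted p 0.0507). That value was -0.03 without KO library a and -0.71 without KO library b. KO-L minus KO-S for Rbbp7 was -0.61 ± 0.25 (95% interval -1.11 to -0.11, adjusted p 0.116), which did not pass.

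**Figure D3:**
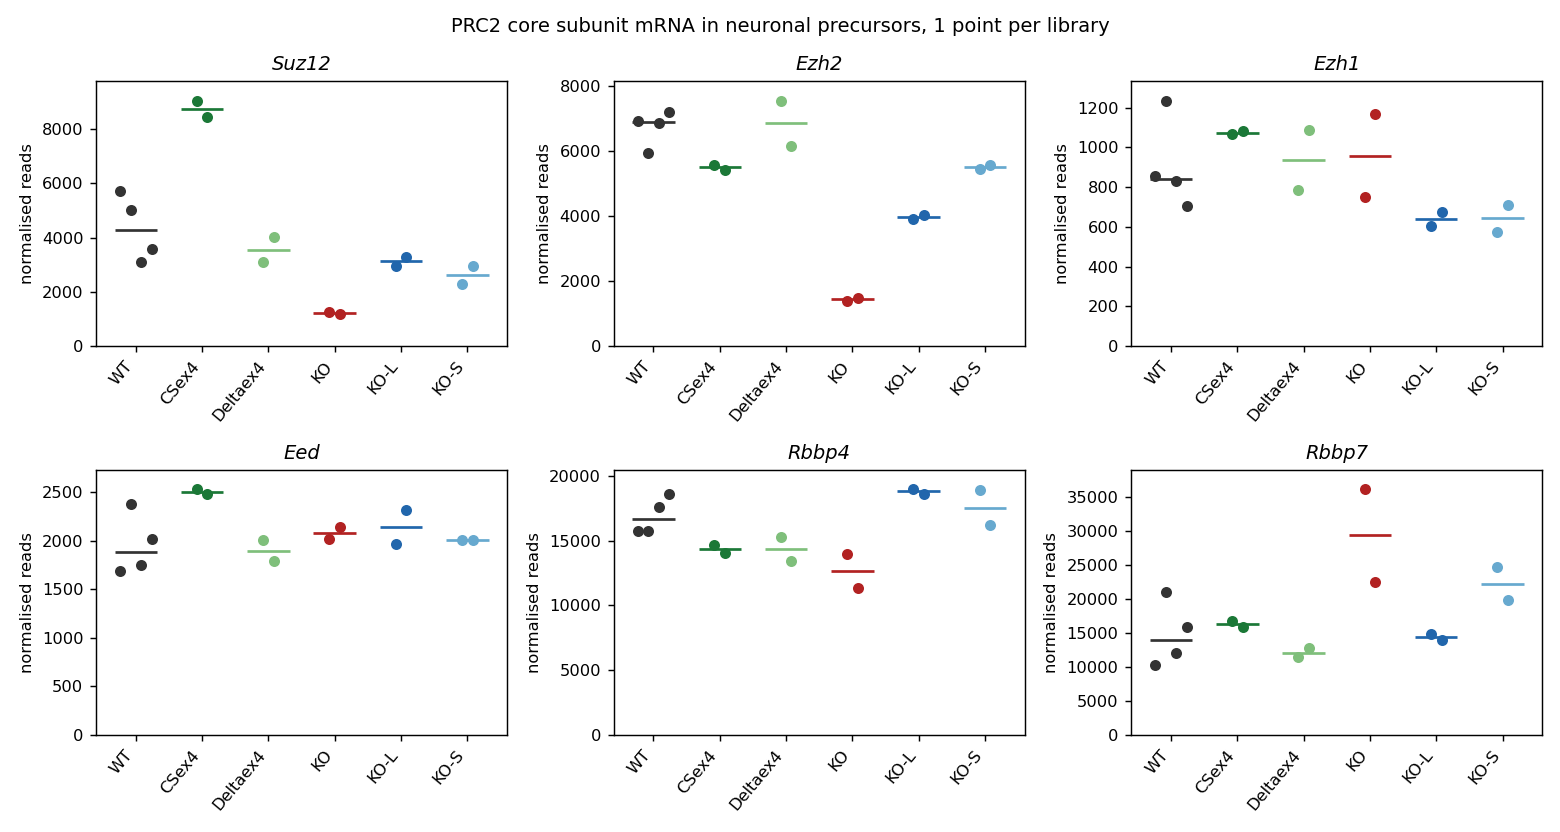
Normalised reads (y axis, from 0) of the 6 genes in the 14 NP libraries by group (x axis); each point is a library and each line the group median. The 2 KO libraries are the lowest for Suz12, at 1196 and 1247, and for Ezh2, at 1401 and 1491, while Rbbp7 reaches 36153 in KO.

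The change of Rbbp7 in KO had opposite signs in ESC and NP. ESC KO minus NP KO was -1.81 ± 0.38 on the log2 scale (95% interval -2.54 to -1.07, adjusted p 4.81e-05). The ratio of Rbbp7 to Rbbp4 reads within a library was 1.99 and 2.58 in NP KO and 0.65 to 1.33 in NP WT; it was 0.75 and 0.79 in KO-L and 1.23 and 1.30 in KO-S. In ESC it was 0.53 to 0.67 in KO and 0.65 to 0.82 in WT. For Suz12, Rbbp4, Eed and Ezh1 the ESC and NP changes in KO did not pass the test of their difference; for Suz12 the difference was 0.32 ± 0.40 (-0.46 to 1.10).

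**Figure D4:**
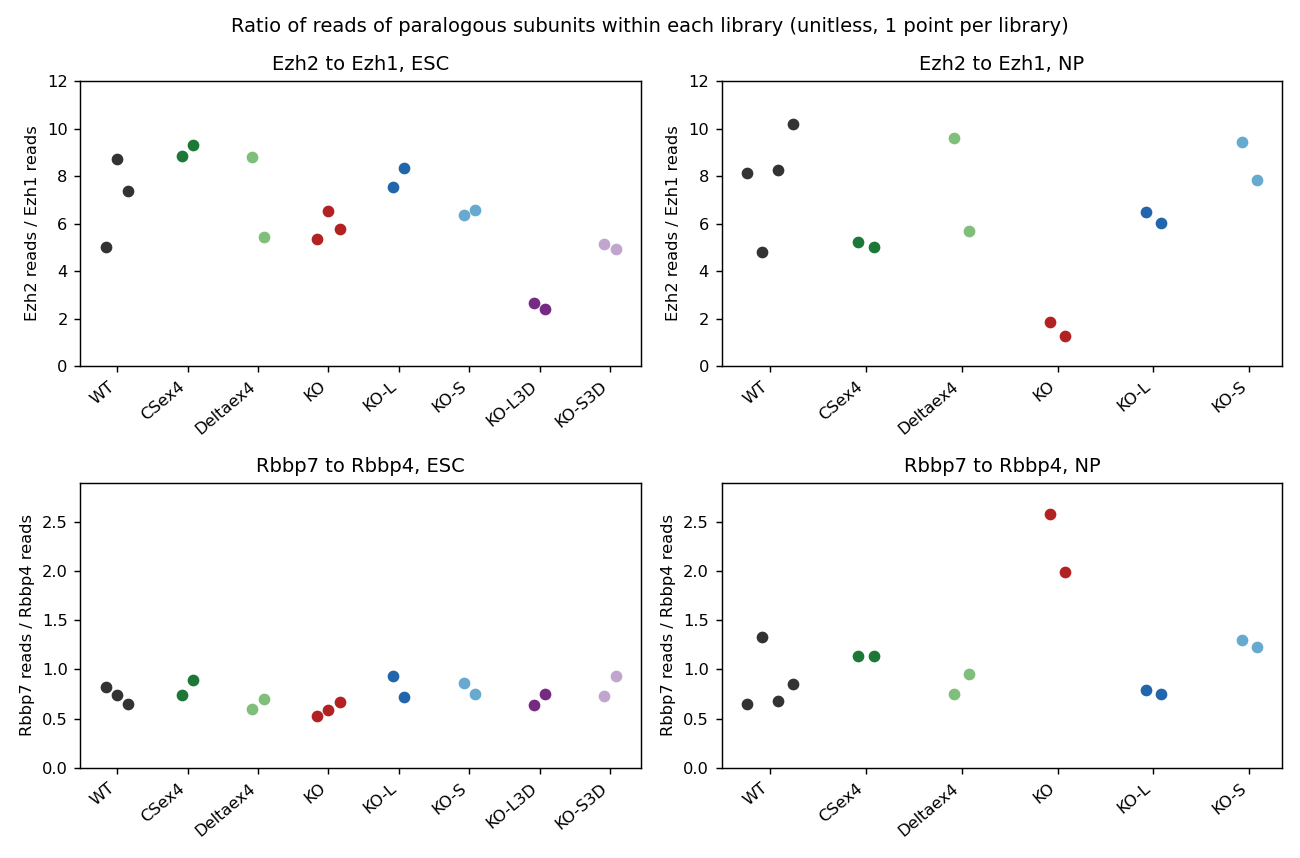
Ratio of Ezh2 to Ezh1 reads (upper panels) and of Rbbp7 to Rbbp4 reads (lower panels), y axes without unit, in each ESC library (left) and NP library (right) by group (x axis); each point is a library. NP KO has the lowest Ezh2 to Ezh1 ratios, 1.28 and 1.86, and the highest Rbbp7 to Rbbp4 ratios, 1.99 and 2.58.

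The falls in ESC KO and KO-L3D stood in tables where abundant genes as a whole were lower. In KO-L3D, the 1291 tested genes with a mean of 4000 to 16000 normalised reads had a median log2 fold change of -0.52, with the 10th percentile at -1.13, and 31.3% of them fell. Suz12 at -1.85, Ezh2 at -1.70 and Rbbp7 at -1.40 in the authors' deposited table were under that percentile, and Eed at -0.83 was not. For Rbbp4 (above 16000) the 10th percentile was -1.17 and its own value -1.23. In ESC KO the same 2 ranges had medians of -0.26 and -0.22. When each value is taken relative to the median of genes with a mean of at least 4000, Eed (adjusted p 0.446 in KO-L3D and 0.221 in KO) and Rbbp4 in KO (adjusted p 0.25) no longer passed. Suz12, Ezh2, Rbbp4 and Rbbp7 in KO-L3D and Suz12 and Rbbp7 in KO still did. In NP KO the median of the 4000 to 16000 range was -0.05. Trophoblast markers (Cdx2, Hand1, Elf5, Esx1) summed to 2183 to 8234 normalised reads in KO-L3D, 937 to 1760 in ESC KO and 72 to 157 in ESC WT. All 4 rose in KO-L3D (8.22% of all tested genes rose) and 3 in KO (11.0%), and their part in these falls was not tested.

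**Figure D5:**
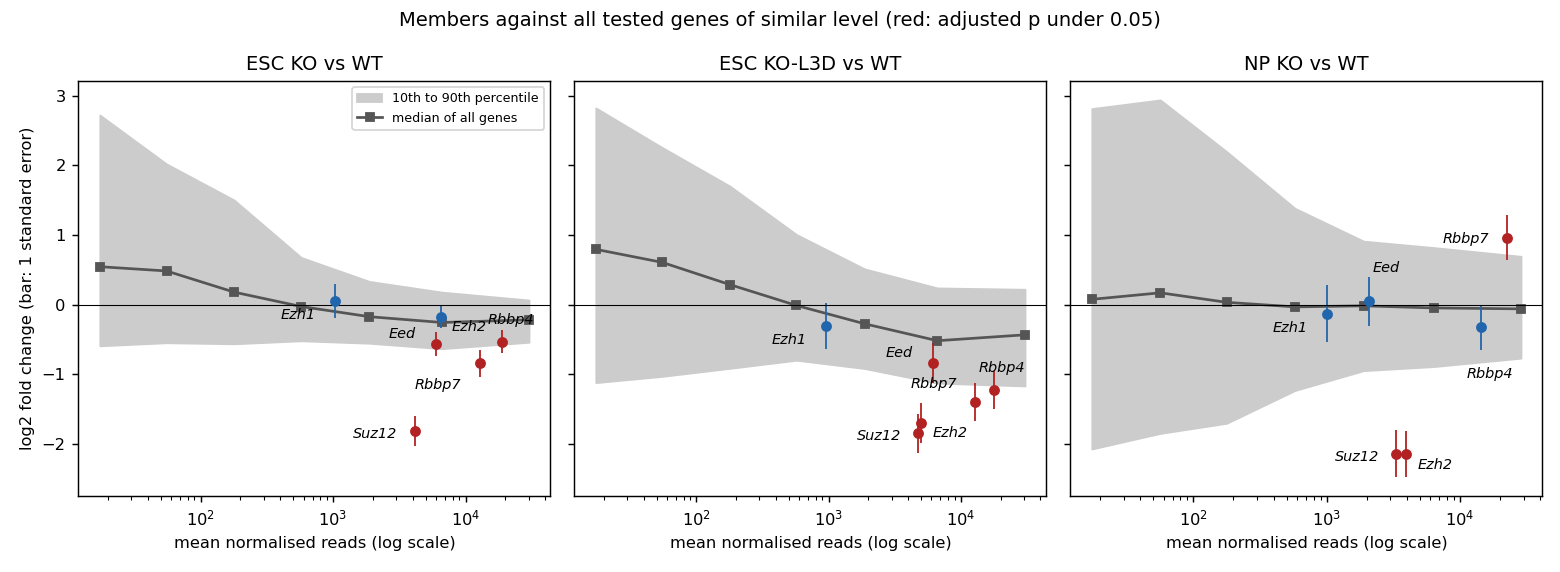
Log2 fold change (y axis, bar 1 standard error) against mean normalised reads (x axis, log scale) for the 6 genes in 3 comparisons, over the median (line) and the 10th to 90th percentile (grey) of all tested genes in 7 ranges of level. In KO-L3D the line falls to -0.52 in the range of 4000 to 16000 reads, and Suz12, Ezh2 and Rbbp7 lie under the grey area.

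Other genes of the same pathways, from lists chosen with earlier results of these data known, are given as counts. Of 10 accessory PRC2 and H3K27 demethylase genes, 2 rose and none fell in KO-S3D (median log2 fold change 0.27, all tested genes -0.04), 2 rose and 1 fell in KO-L3D (-0.15 against -0.02), 1 rose and 1 fell in ESC KO (-0.12 against 0.01), and 3 fell in NP KO (-0.65 against -0.01). In NP WT against KO, with the other WT pair, 3 were higher and 1, Epop, lower in WT (0.21 against 0.00). Of all tested genes, 2.05% rose in KO-S3D, 8.22% rose and 10.1% fell in KO-L3D, 11.0% rose and 7.27% fell in ESC KO, and 9.85% fell in NP KO; in NP WT against KO 15.6% were higher and 17.3% lower. Epop, an accessory factor that binds elongin, was called higher in 3 ESC tables, with 1.32 ± 0.31 in KO-L3D (adjusted p 0.000475), 1.42 ± 0.34 in KO-S3D (adjusted p 0.00297) and 0.99 ± 0.25 in KO (adjusted p 0.000871) in the authors' deposited tables. Jarid2, the accessory factor of the PRC2.2 form, fell in NP KO, at -1.25 ± 0.35 in the authors' deposited table (adjusted p 0.00303), and was 1.00 ± 0.33 higher in WT with the other WT pair in the authors' deposited table (adjusted p 0.00889).

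Of 10 genes of the other complexes that hold RBBP4 or RBBP7, 2 fell in KO-L3D (median -0.53), Sin3a and Mta1, 1 in ESC KO (median -0.24), Mta1, and 1 in NP KO (median -0.47), Chd4, which was also the 1 gene called, higher in WT, in NP WT against KO (median 0.55). Of 12 replication genes controlled by E2F factors, 6 fell in KO-L3D (median -0.73) and 1 in ESC KO (-0.27), none in NP KO (-0.58). With the other WT pair, 5 were higher in NP WT than in KO (0.53), and 9 and 8 were higher in NP KO-L and KO-S than in KO (0.88 and 0.52; 1 was lower in KO-S). Of all tested genes, 10.9% were higher in KO-L, and 16.4% were higher and 18.0% lower in KO-S. Their summed normalised reads were 54079 to 58561 in NP KO and 71033 to 92506 in NP WT. In ESC they were 81128 to 97423 in KO-L3D and 128519 to 160318 in WT. Suz12's neighbours on the chromosome, Utp6 (30719 bp before it) and Crlf3 (12370 bp after it), were also tested: both fell in KO-L3D, where the authors' deposited table gave -0.83 ± 0.30 (adjusted p 0.0366) and -1.07 ± 0.31 (adjusted p 0.00651), and Crlf3 fell in ESC KO at -0.66 ± 0.20 (adjusted p 0.00839). Neither was called in NP KO or in NP WT against KO. In NP KO-L, where Suz12 was higher than in KO, Crlf3 was higher too (0.87 ± 0.24 in the authors' deposited table, adjusted p 0.00213). Of 3 genes at the Rosa26 locus, where the 3D rescues sit, none was called in KO-L3D (median -0.18) or KO-S3D (-0.55). In ESC KO, which carries no rescue, 1 of them fell (median -0.49), where 7.27% of all tested genes fell.

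Over all 15 pairs of comparisons whose difference was tested (14 planned and 1 added), members differed in the 3 named above, of ESC KO and NP KO, KO-L3D and KO-L, and KO-L3D and KO. In the other 12 pairs no member passed. The share of all genes that passed there was 4.97% for CSex4 in ESC and NP, 0.0071% for Deltaex4 in ESC and NP, 0.0766% for CSex4 and Deltaex4 in ESC and 1.78% in NP. It was 3.94% for KO-L and KO-S in ESC, 0.589% for KO-L and KO, 3.76% for KO-S and KO, 0.732% for KO-S3D and KO-S, and 0.0541% for KO-L3D and KO-S3D. In NP it was 10.3% for KO-L and KO-S, 14.2% for KO-L and WT and 4.77% for KO-S and WT, each against KO.

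As a description, the pattern of each gene over the 13 comparisons was set beside that of 10238 genes with a mean of at least 100 in every table, by the cosine of their log2 fold changes. The comparisons share libraries, so these values carry no test. Nup88 (0.96), Larp1 (0.95) and Nvl (0.95) were nearest to Suz12, where the median over genes was 0.21. Zfp862-ps (0.99), Kif22 (0.97) and Casp2 (0.97) were nearest to Ezh2, Snrnp200 (0.99), Cdca4 (0.99) and Ddx1 (0.98) to Rbbp4, and Gtf2h1 (0.96), 2310022A10Rik (0.95) and Tefm (0.94) to Eed. Lpar2 (0.95), Gramd3 (0.94) and Snap47 (0.93) were nearest to Rbbp7, and Sord (0.83), Ypel2 (0.83) and Vwa8 (0.83) to Ezh1. Among the members themselves, Suz12 stood at 0.77 with Ezh2 and with Rbbp4, Rbbp7 at 0.74 with Eed but at -0.33 with Ezh2 and 0.32 with its paralog Rbbp4, and Ezh1 at -0.24 with Ezh2.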

How the data were processed

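Polyadenylated RNA of 32 libraries was analysed from 13 comparison tables that the authors deposited, together with 2 lists of ChIP-seq regions; values of single ChIP-seq samples were not used here. Per the submitters' processing notes the tools were TopHat, Bowtie, DESeq2 and DiffBind and the genomes mm10 and dm3, without roles or versions; how reads were counted is not given in the sources used here. Per the file headers, each table gives a mean signal (reads divided by size factors, averaged over libraries), a log2 fold change with its standard error, the statistic or score (their ratio), a p-value and an adjusted p-value, which are the columns of DESeq2's Wald test with Benjamini-Hochberg adjustment. The deposited region lists hold another value per region, with a false discovery rate of 5% in the header; only the positions were used, and mm10 shares its coordinates with GRCm38. Calls are the authors' adjusted p under 0.05, and no test was refitted.

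The members, the lists and the motifs were chosen with earlier results of these data known. The naming rule took the 6 members everywhere, the 3 genes most like each member, and at most 4 genes of each list by the size of their statistic; the markers served to check cell types.

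Reads of single libraries were recovered from the digits of the deposited means with a lattice search (SymPy 1.14.0), for 140 of 142 combinations of gene and cell type; Gata6 and Sox17 in ESC were not recovered. On simulated data 32 of 32 genes came back exactly. Mean log2 normalised reads of the libraries that carry weight matched the deposited fold changes of members within 0.002. The 60 library places held 32 distinct libraries. In 6 of the 7 ESC tables WT library c has no weight, as when replicate numbers enter the model as a block and c lacks a partner; numbers and letters could not be linked, so the pairing itself was not checked. Levels per length, which were planned, could not be made from the tables used.

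Differences between 2 comparisons were tested with a two-sided normal test of the difference over the root of the summed squared standard errors, on genes with a mean of at least 10 in both, with Benjamini-Hochberg adjustment over them; where 2 tables share libraries this error is too large. In all, 14 pairs were planned and 1 was added. Alternatives were other thresholds, adjustment over all genes, centring, scaling by the spread of the statistics, a correlation of 0.5 between tables, and leaving out each library. Python 3.11.15, pandas 2.3.3, NumPy 2.4.6 and SciPy 1.17.1 were used.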

Additional observations from a re-analysis of the deposited data

Results flagged for a closer look

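Ezh2 differed between the cell types in the same contrast: the log2 fold change of KO against WT in ESC exceeded that in NP by 1.98 ± 0.37 (adjusted p 3.71e-06 by the normal test of the difference between the authors' deposited values). All 3 ESC KO libraries kept at least 5515 normalised Ezh2 reads, and both NP KO libraries had at most 1491. Neural precursor and neuron markers were low in the same NP KO libraries, and their part in this difference was not tested.

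Rbbp7 differed in the opposite sense, by -1.81 ± 0.38 (ESC minus NP, adjusted p 4.81e-05 by the same test): it was lower than WT in 3 of 3 ESC KO libraries and higher than all 4 WT libraries in 2 of 2 NP KO libraries. The number of members that differed between ESC KO and NP KO was also 2 with genes of a mean of at least 100 in both tables, at an adjusted p of 0.01, and with each table centred on its median. Of 14631 genes, 14.3% differed in this pair. Division by the robust SD was not tried on the differences. With the statistic of each table so divided, Rbbp7 passed neither in ESC KO (adjusted p 0.317) nor in NP KO (adjusted p 0.630). In NP WT, the only group of 4 libraries, no member had a library apart from the others by Dixon's criterion.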

How the results depend on the processing

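The counts of called members kept within 1.5 times their value when adjusted p was taken over every gene with a p-value. At an adjusted p of 0.01 the count was 2 in ESC KO and 0 in ESC KO-L and in ESC KO-S, and at 0.1 it was 5 in NP KO-S against KO. Each statistic was also divided by its robust SD over all genes, which is above 1 where many genes change. Counts were then 1 in ESC KO and in ESC KO-L3D, in each case Suz12, and 1 in NP KO-S and in NP WT against KO, in each case Ezh2. They were 2 in NP KO-L against KO, 2 in NP KO, where Rbbp7 was lost (adjusted p 0.630), and 0 in ESC KO-S. The count was 1 in ESC Deltaex4 and 1 in NP Deltaex4, in each case Suz12 (adjusted p 2.91e-05 and 0.0325), since those tables have robust SDs of 0.56 and 0.57. Centring on genes with a mean of at least 100 gave 5 in NP KO-S and 0 in ESC KO-S. Centring on genes with a mean of at least 4000, chosen after seeing the data, gave 5 and 0 for these and 2 in ESC KO. In NP KO-L against KO it lost Rbbp4 (adjusted p 0.072) and gained Ezh1, which was lower (adjusted p 0.0328). The share of all genes called under each of these settings is not given here, so a higher count adds no support to a member.

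For differences between comparisons, a correlation of 0.5 between tables that share libraries gave 4 members for KO-L3D against KO-L, 2 for KO-L3D against KO-S3D and for NP KO-L against KO-S, and 1 each for CSex4 against Deltaex4 in ESC and in NP, ESC KO-S against KO, and NP KO-L against WT. KO-L3D against KO-L gave 1 at an adjusted p of 0.01 and 1 after centring. The correlation makes the standard error of the difference smaller for every gene. The share of all genes that passed under these settings is not given here, so these counts add no support to a member.

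Without the replicate block and with every library, from the recovered reads, members moved by at most 0.22 from the deposited log2 fold changes; Suz12 in ESC KO-S3D went from -0.06 to 0.16, and its value in ESC KO-L3D was -1.62. Whether the numbers pair the libraries could not be checked. Leaving out each library in turn (chosen after seeing the data) could not change the sign of the 24 called values, since their groups did not overlap. Their sizes moved, as given above for single values. In the ESC tables other than KO, these values weight WT library c like the other WT libraries, which the deposited values do not. Calls could not be recomputed without the authors' model. With 2 libraries a group, a value rests on few libraries, and the intervals above are as wide as their standard errors allow.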
